A study of Rattus norvegicus with 9 samples.

Results

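D cyclins, their kinase CDK4, the retinoblastoma protein it acts on and the inhibitors that hold the kinase back were examined in cultured heart muscle cells. The 10 genes were Ccnd1, Ccnd2, Ccnd3, Cdk4, Rb1, Cdkn1a, Cdkn1b, Cdkn1c, Cdkn2b and Cdkn2c, taken by symbol from a table of 17327 rows. All 10 had a row, and all 10 passed the filter on low counts among 11873 genes tested. The samples were RNA-seq libraries of primary ventricular cardiomyocytes from newborn rats, in 3 groups of 3. The groups received vehicle, 50 µM phenylephrine (an agonist of alpha-1 adrenergic receptors) or 10 nM IGF1 (a growth factor whose receptor is a tyrosine kinase), each for 48 hours. The labels name no strain, genetic change or litter, and do not say whether samples of a group were separate cultures, so the p-values measure the spread among the samples at hand, and that spread may be technical.

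A D cyclin binds CDK4 or CDK6, and the complex phosphorylates the retinoblastoma protein, which then lets go of E2F transcription factors so that genes of DNA replication can be transcribed. INK4 inhibitors (among them p15, encoded by Cdkn2b, and p18, encoded by Cdkn2c) bind the kinases alone, whereas Cip/Kip inhibitors (p21, p27 and p57, encoded by Cdkn1a, Cdkn1b and Cdkn1c) bind cyclin and kinase complexes. Rodent cardiomyocytes largely leave the cell cycle soon after birth, and stimuli of hypertrophy enlarge the cells, mostly without division.

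Total counts ran from 31274396 to 48505265 per sample. Levels are CPM, read counts relative to the size of the library after scaling by TMM factors, and a level of 1 CPM rested on 29.1 to 51.6 reads. The 3 genes with the fewest reads in any sample were Cdkn2c (191 to 1105 reads per sample), Cdkn2b (208 to 355) and Cdkn1c (1384 to 5152). IGF1 replicate 1 stood apart: a chi-square test of its counts gave 85.1 and 82.4 per degree of freedom against IGF1 replicates 2 and 3, whereas the other pairs within a group gave 2.97 to 7.43. For the 10 genes, calls, counts and overlaps between groups that change without it are therefore given both ways. For the wider lists and the cell type markers, only some of the counts that change without it are given both ways. Levels of different genes are not compared, since the table holds no transcript lengths. In all 9 samples the 7 cardiomyocyte markers were detected, Tnnt2 at 7119 to 11945 CPM.

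The sequences around the starts of 5 of the genes are shown because they stand for some of the patterns described next. Cdk4 and Cdkn2c were lower with phenylephrine and higher with IGF1 than with vehicle. Rb1 and Cdkn1b were lower in both, and Cdkn2b was higher with phenylephrine. Promoter entries were found in RefSeq (build GRCr8) for 7 of the 10 genes. Each window runs from 250 bases before to 50 bases after the annotated start, 5′ to 3′ on the strand of the gene, with matches to the searched motifs in capitals.
Cdk4 (chr7:64771203-64771502, plus strand): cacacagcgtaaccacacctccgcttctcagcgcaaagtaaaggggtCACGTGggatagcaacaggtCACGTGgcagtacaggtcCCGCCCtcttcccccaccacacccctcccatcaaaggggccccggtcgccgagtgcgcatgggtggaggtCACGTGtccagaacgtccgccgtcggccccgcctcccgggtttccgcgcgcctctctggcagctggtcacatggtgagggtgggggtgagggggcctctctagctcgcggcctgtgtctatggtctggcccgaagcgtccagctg
Cdkn2c (chr5:129644842-129645141, minus strand): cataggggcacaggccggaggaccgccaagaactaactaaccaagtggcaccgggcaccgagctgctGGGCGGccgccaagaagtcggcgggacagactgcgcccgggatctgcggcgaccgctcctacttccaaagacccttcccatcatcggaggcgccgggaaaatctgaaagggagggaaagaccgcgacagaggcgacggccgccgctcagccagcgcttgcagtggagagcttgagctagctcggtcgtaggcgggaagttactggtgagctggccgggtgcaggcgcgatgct
Rb1 (chr15:54911808-54912107, minus strand): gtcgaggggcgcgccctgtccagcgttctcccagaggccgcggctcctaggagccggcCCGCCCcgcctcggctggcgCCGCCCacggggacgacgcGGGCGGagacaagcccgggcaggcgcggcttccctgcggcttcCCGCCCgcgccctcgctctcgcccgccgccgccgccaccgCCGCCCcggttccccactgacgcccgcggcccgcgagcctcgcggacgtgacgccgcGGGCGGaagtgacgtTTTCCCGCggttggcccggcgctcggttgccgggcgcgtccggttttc
Cdkn1b (chr4:169491254-169491553, plus strand): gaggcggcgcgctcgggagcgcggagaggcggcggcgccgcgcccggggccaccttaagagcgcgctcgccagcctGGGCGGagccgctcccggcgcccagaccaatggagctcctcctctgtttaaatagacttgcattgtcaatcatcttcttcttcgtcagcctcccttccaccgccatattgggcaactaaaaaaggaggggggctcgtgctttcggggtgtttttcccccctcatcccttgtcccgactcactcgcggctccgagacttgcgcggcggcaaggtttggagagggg
Cdkn2b (chr5:109134806-109135105, minus strand): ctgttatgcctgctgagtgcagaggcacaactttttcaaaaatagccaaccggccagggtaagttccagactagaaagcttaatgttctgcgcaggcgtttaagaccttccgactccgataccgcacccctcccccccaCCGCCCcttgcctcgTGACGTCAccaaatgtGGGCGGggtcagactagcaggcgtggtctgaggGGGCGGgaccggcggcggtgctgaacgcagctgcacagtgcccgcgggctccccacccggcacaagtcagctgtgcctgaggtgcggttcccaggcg

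The motifs were searched on both strands, and no 2 matches overlapped in these windows. They were E2F sites (TTTCCCGC, TTTGGCGC or TTTCGCGC), the E-box CACGTG, cyclic AMP response elements (TGACGTCA or TAACGTCA), AP-1 sites (TGACTCA or TGAGTCA), the forkhead motif GTAAACA and the Sp1 box GGGCGG. The Cdk4 window held 3 E-boxes, at 203, 183 and 95 bases before the start (position of the first base), and an E-box occurred in 6.42% of 33469 promoter windows of this length. The Rb1 window held an E2F site, TTTCCCGC, at bases 3 to 10 after the start, and 1.72% of windows held 1 of the 3 E2F forms. Cdkn2b held the element TGACGTCA at 96 to 89 bases before the start, and 2.08% of windows held either form of it. Each of these 5 windows held at least 1 Sp1 box, found in 33.1% of windows. So did the Ccnd3 window, while the Cdkn1a window held no match to any searched motif. AP-1 and forkhead motifs (4.63% and 3.78% of windows) matched in none of the 7. A match is a string of letters and was not tested for binding.

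**Figure D1:**
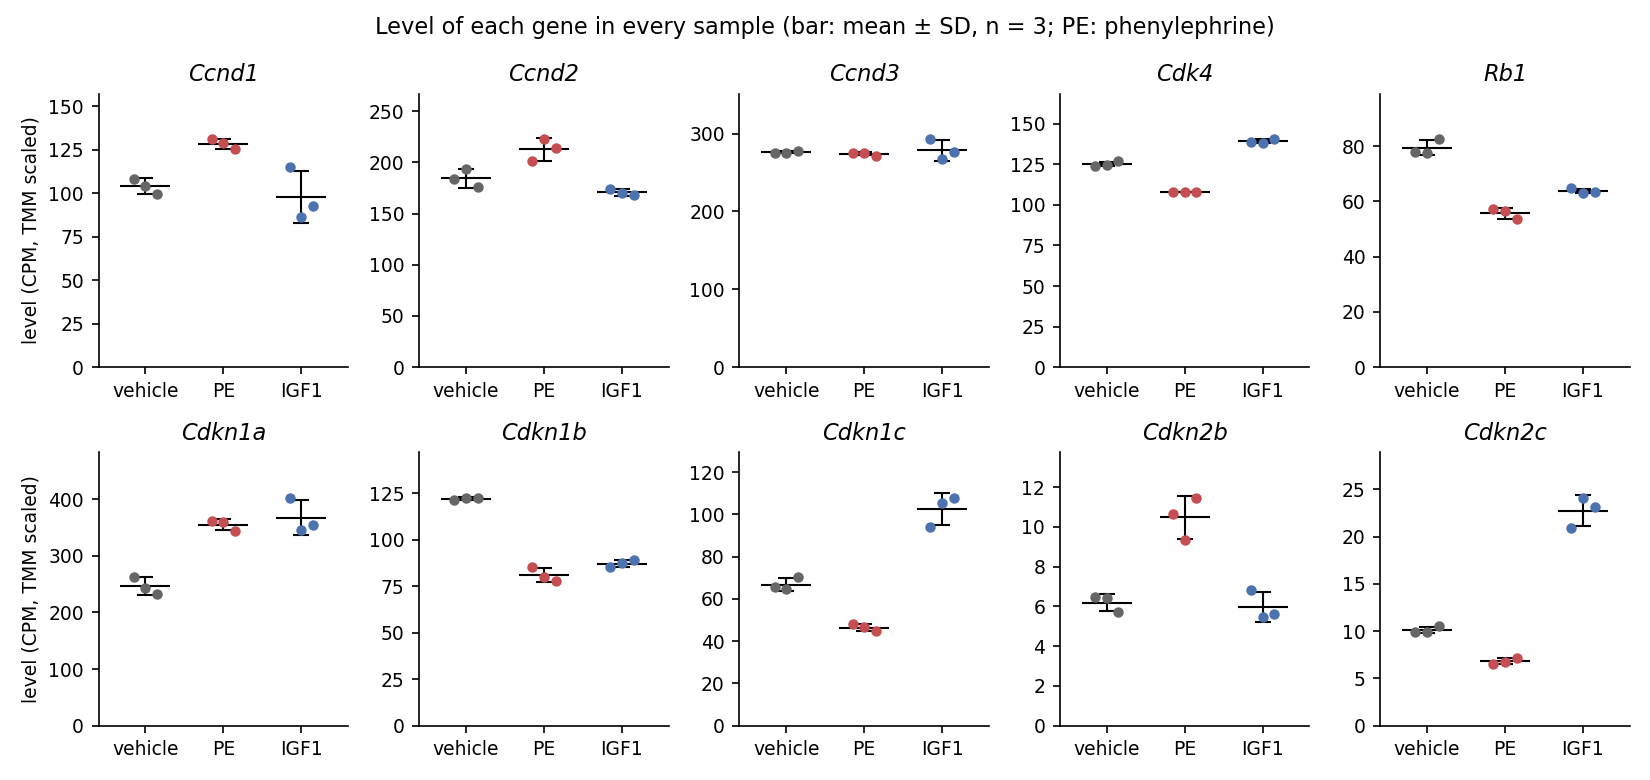
Level of each of the 10 genes in every sample, in TMM-scaled CPM from 0 on the vertical axis, by group on the horizontal axis. Points are samples and bars are the mean ± SD (n = 3). Cdkn2c lies at 6.56 to 7.21 CPM with phenylephrine and 21.0 to 24.1 CPM with IGF1, and Ccnd3 lies near 275 CPM in most samples.

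Of the D cyclins, Ccnd1 and Ccnd2 were higher with phenylephrine than with vehicle or IGF1, and Ccnd3 passed the test in no comparison with TMM scaling. Ccnd1, the D cyclin induced by mitogens in many cell types, was at 108, 104 and 99.7 CPM with vehicle, at 131, 129 and 125 CPM with phenylephrine and at 115, 86.4 and 92.8 CPM with IGF1. All phenylephrine samples lay above all others. The vehicle and IGF1 samples overlapped through IGF1 replicate 1 only, and the other IGF1 samples lay below all vehicle samples. Ccnd1 rose 1.23-fold with phenylephrine (log2 0.30, SE 0.086, adjusted p = 0.012 in edgeR's quasi-likelihood test) and was 1.31-fold higher with phenylephrine than with IGF1 (log2 0.39, adjusted p = 0.0029). For IGF1 against vehicle its log2 fold change was -0.089 (95% confidence interval -0.28 to 0.10, adjusted p = 0.43). That value rested on IGF1 replicate 1, the highest of the 3, and without it Ccnd1 fell with IGF1 (log2 -0.22, adjusted p = 1.6e-05). Scaled by library size only, it passed as well (-0.18, adjusted p = 0.034). The phenylephrine call ended without vehicle replicate 3 (log2 0.26, adjusted p = 0.052). Without IGF1 replicate 1, which enters the shared estimate of spread, it passed with log2 0.30 (adjusted p = 9.4e-10).

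Ccnd2, another D cyclin, which cardiac cells also express, was at 184, 193 and 176 CPM with vehicle, 201, 223 and 214 CPM with phenylephrine and 174, 170 and 168 CPM with IGF1. The 3 groups did not overlap. Ccnd2 rose with phenylephrine (log2 0.21, SE 0.047, adjusted p = 0.0017) and was higher with phenylephrine than with IGF1 (log2 0.32, adjusted p = 4.6e-05). The log2 difference between IGF1 and vehicle, -0.11, missed the threshold (adjusted p = 0.065, interval -0.21 to -0.010), and it passed without IGF1 replicate 1 (log2 -0.13, adjusted p = 0.0071) or vehicle replicate 3 (-0.15, adjusted p = 0.030), when scaled by library size only (-0.20, adjusted p = 0.0049) and with a stricter filter on low levels (adjusted p = 0.041).

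Ccnd3, the remaining D cyclin, was at 275 to 278 CPM with vehicle, 272 to 276 CPM with phenylephrine and 293, 267 and 276 CPM with IGF1, and all 3 groups overlapped. Its log2 fold changes were -0.0099 with phenylephrine (interval -0.096 to 0.077, adjusted p = 0.85) and 0.013 with IGF1 (-0.073 to 0.10, adjusted p = 0.81). Between the treatments the value was -0.023 (-0.11 to 0.063, adjusted p = 0.65), and it passed as lower with phenylephrine only when scaled by library size. The mean levels of Ccnd1 and Ccnd2 were thus in the order phenylephrine, vehicle, IGF1. With TMM scaling and all samples, vehicle and IGF1 did not pass as different for either gene, nor did any neighbours in the order of Ccnd3.

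The rises of Ccnd1 and Ccnd2 with phenylephrine depended on how libraries were scaled. Scaling by library size only moved the median log2 fold change of all genes with phenylephrine from -0.029 to -0.22. The log2 fold changes then became 0.11 for Ccnd1 (adjusted p = 0.15), 0.013 for Ccnd2 (adjusted p = 0.83) and -0.20 for Ccnd3 (adjusted p = 1.6e-04). Relative to the median gene, Ccnd1 lay at 0.33 and Ccnd2 at 0.24 under either scaling, and Ccnd3 at 0.019.

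Cdk4, the kinase that D cyclins activate, moved in opposite directions with the 2 treatments. It was at 124, 125 and 127 CPM with vehicle, at 108 CPM in each phenylephrine sample and at 139, 138 and 141 CPM with IGF1, so that no groups overlapped. Cdk4 fell with phenylephrine (log2 -0.22, SE 0.036, adjusted p = 1.3e-04) and rose 1.11-fold with IGF1 (log2 0.15, SE 0.036, adjusted p = 0.0026), and was 1.29-fold lower with phenylephrine than with IGF1 (adjusted p = 6.8e-07). The rise with IGF1 ended with scaling by library size only (log2 0.068, adjusted p = 0.21), where the median of all genes was -0.085. Relative to that median it was 0.15 under both scalings.

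Rb1, which encodes the retinoblastoma protein, was lower with both treatments. It was at 78.0, 77.6 and 82.5 CPM with vehicle, 57.3, 56.4 and 53.4 CPM with phenylephrine and 64.7, 63.2 and 63.3 CPM with IGF1, again without overlap between any groups. Rb1 was 1.42-fold lower with phenylephrine (log2 -0.51, SE 0.045, adjusted p = 2.5e-07) and lower with IGF1 (log2 -0.32, SE 0.044, adjusted p = 3.4e-05). These comparisons share the vehicle samples. Compared directly, Rb1 was 1.14-fold lower with phenylephrine than with IGF1 (log2 -0.19, adjusted p = 0.0021).

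**Figure D2:**
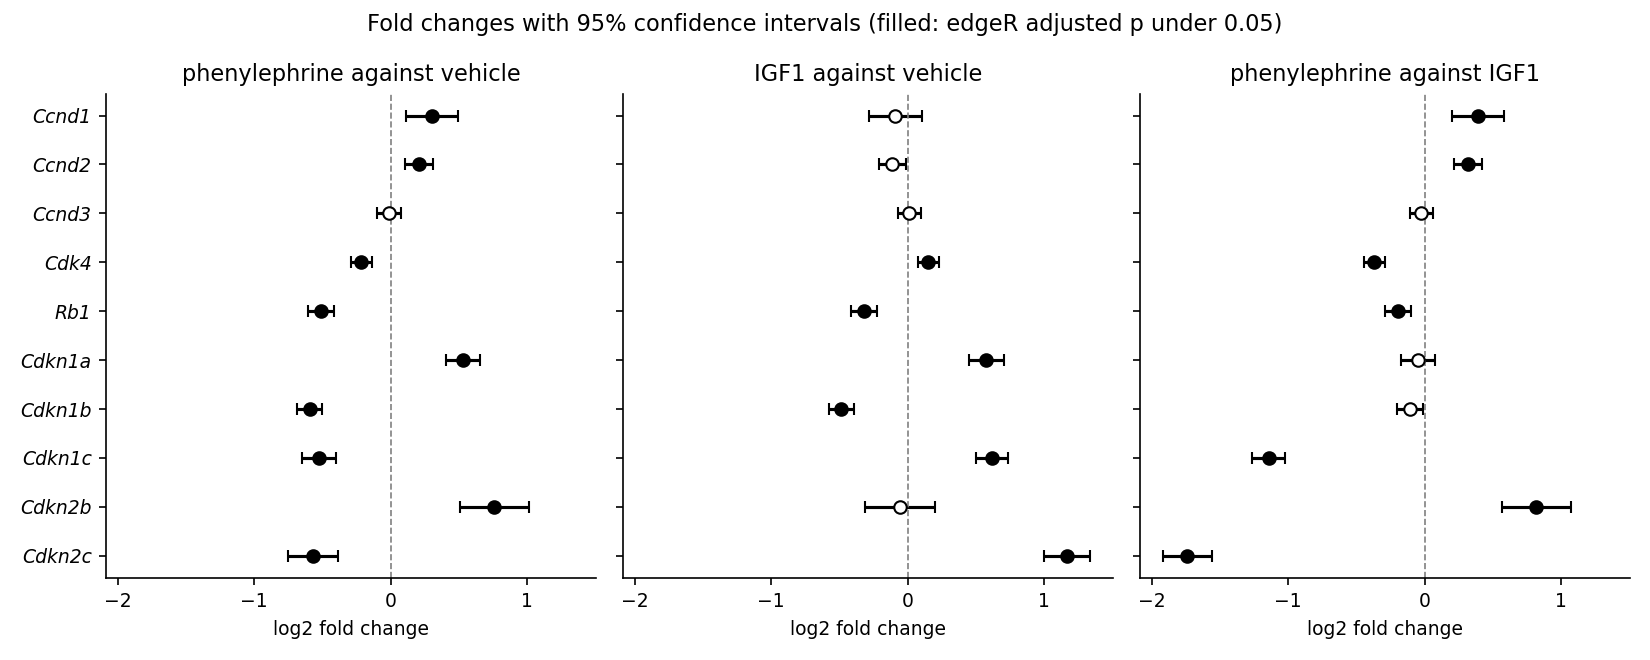
Log2 fold change of each gene (horizontal axis) with its 95% confidence interval in the 3 comparisons, filled where the edgeR adjusted p was under 0.05. Intervals of Ccnd3 include 0 in all 3 panels, and the longest distances from 0 are those of Cdkn2c (1.17 with IGF1 against vehicle, and -1.74 between the treatments).

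Among the Cip/Kip inhibitors, Cdkn1a was higher and Cdkn1b lower with each treatment than with vehicle, while Cdkn1c differed in direction between the treatments. Cdkn1a encodes p21, a target of p53 and of many stress signals. It was at 263, 243 and 232 CPM with vehicle, 361, 360 and 344 CPM with phenylephrine and 403, 346 and 353 CPM with IGF1. All treated samples lay above all vehicle samples, and the treated groups overlapped. The rise was 1.44-fold with phenylephrine (log2 0.53, SE 0.059, adjusted p = 3.0e-06) and 1.49-fold with IGF1 (log2 0.58, SE 0.059, adjusted p = 1.8e-06). Between the treatments the log2 difference was -0.049 (interval -0.17 to 0.077, adjusted p = 0.51). It was 0.022 without IGF1 replicate 1 (adjusted p = 0.64). Scaling by library size only gave -0.15, which passed (adjusted p = 0.017).

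Cdkn1b encodes p27, whose gene is a known target of FoxO factors. It was at 121, 122 and 123 CPM with vehicle, 85.1, 79.97 and 77.6 CPM with phenylephrine and 85.1, 87.2 and 88.9 CPM with IGF1. The fall was 1.51-fold with phenylephrine (log2 -0.59, SE 0.043, adjusted p = 3.6e-08) and 1.40-fold with IGF1 (log2 -0.49, SE 0.043, adjusted p = 3.6e-07), against the same vehicle samples. Phenylephrine samples lay just below IGF1 samples, and the log2 difference of -0.11 missed the threshold (interval -0.20 to -0.013, adjusted p = 0.051). It passed without IGF1 replicate 1 (log2 -0.12, adjusted p = 0.0084), without phenylephrine replicate 1 (-0.14, adjusted p = 0.019), with limma-voom (adjusted p = 0.047), when scaled by library size only (log2 -0.22, adjusted p = 0.0038) and with a stricter filter on low levels (0.028).

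Cdkn1c encodes p57, an imprinted inhibitor active in many tissues before birth. It was at 65.4, 64.8 and 70.2 CPM with vehicle, 48.0, 46.7 and 44.7 CPM with phenylephrine and 93.9, 105 and 108 CPM with IGF1. The 3 groups were well separated, in the order IGF1, vehicle, phenylephrine. Cdkn1c was 1.44-fold lower with phenylephrine (log2 -0.52, SE 0.057, adjusted p = 2.1e-06), rose 1.53-fold with IGF1 (log2 0.62, SE 0.055, adjusted p = 4.1e-07) and differed 2.21-fold between the treatments (phenylephrine against IGF1, log2 -1.14, SE 0.057, adjusted p = 4.2e-10).

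The INK4 inhibitors Cdkn2b and Cdkn2c had unlike patterns. Cdkn2b is the gene of p15 and a known target of TGF-beta signalling. It was at 6.47, 6.40 and 5.70 CPM with vehicle, 10.6, 9.34 and 11.5 CPM with phenylephrine and 6.85, 5.44 and 5.64 CPM with IGF1. The phenylephrine samples lay above all others. Vehicle and IGF1 overlapped through IGF1 replicate 1 only, the highest of its group. Cdkn2b rose 1.69-fold with phenylephrine (log2 0.76, SE 0.12, adjusted p = 6.3e-05) and was 1.76-fold higher with phenylephrine than with IGF1 (log2 0.82, adjusted p = 3.8e-05). Its log2 fold change with IGF1 was -0.058 (interval -0.31 to 0.20, adjusted p = 0.72), and -0.16 without IGF1 replicate 1 (adjusted p = 0.29).

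Cdkn2c, the gene of p18, was at 9.95, 9.90 and 10.5 CPM with vehicle, 6.56, 6.72 and 7.21 CPM with phenylephrine and 21.0, 24.1 and 23.2 CPM with IGF1, with no overlap. It was 1.48-fold lower with phenylephrine (log2 -0.57, SE 0.087, adjusted p = 5.7e-05) and rose 2.25-fold with IGF1 (log2 1.17, SE 0.079, adjusted p = 2.2e-08). The treatments differed 3.34-fold (phenylephrine against IGF1, log2 -1.74, SE 0.085, adjusted p = 3.2e-10).

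Counted together, 4 of the 10 genes rose with phenylephrine (Ccnd1, Ccnd2, Cdkn1a and Cdkn2b) and 5 fell (Cdk4, Rb1, Cdkn1b, Cdkn1c and Cdkn2c), so that 9 passed the threshold, where 56.8% of all genes tested passed (27.9% higher and 28.9% lower). With IGF1, 4 rose (Cdk4, Cdkn1a, Cdkn1c and Cdkn2c) and 2 fell (Rb1 and Cdkn1b). These 6 stand beside 48.1% of all genes (24.7% higher and 23.4% lower), a share near that of the 10. Between phenylephrine and IGF1, 7 passed, 3 higher with phenylephrine and 4 lower, beside 54.2% of all genes (27.1% in each direction). Without IGF1 replicate 1 the numbers called were 9, 8 and 8, beside 63.4%, 53.9% and 60.7% of all genes. With scaling by library size only, 2 rose and 6 fell with phenylephrine, 3 rose and 4 fell with IGF1, and 3 were higher and 7 lower with phenylephrine than with IGF1. That scaling moved all genes the same way, to 1751 higher and 5696 lower with phenylephrine, 2031 and 3614 with IGF1, and 2132 and 4366 between the treatments, of 11873.

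Most of these changes were small. A change of at least 1.5-fold past the threshold was found with phenylephrine for Cdkn2b as higher and Cdkn1b as lower (7.57% and 10.0% of all genes). With IGF1 it was found for Cdkn1c and Cdkn2c as higher and for none as lower (5.76% and 5.90% of all genes). Between the treatments it was found for Cdkn2b as higher with phenylephrine and for Cdkn1c and Cdkn2c as lower (7.65% and 10.1%). With all samples, groups did not overlap for 9 of the 10 genes between phenylephrine and vehicle (66.6% of all genes). The same held for 7 between IGF1 and vehicle (56.5%) and for 8 between the treatments (58.8%). Without IGF1 replicate 1, Ccnd1 and Cdkn2b did not overlap between IGF1 and vehicle either. The share of all genes was not obtained for that setting, in which fewer samples make overlap less likely for any gene. The median log2 fold change of the 10 was -0.11 with phenylephrine and -0.022 with IGF1, beside -0.029 and -0.0018 over all genes.

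Ratios of reads within a sample do not depend on how libraries are scaled, and transcript length cancels when 1 ratio is compared across samples. Reads of Ccnd1 per read of Cdk4 were 0.83 ± 0.043 with vehicle, 1.19 ± 0.024 with phenylephrine and 0.70 ± 0.11 with IGF1 (SD, n = 3). The phenylephrine samples lay above all others. IGF1 replicate 1 (0.83) lay among the vehicle samples (0.79 to 0.87), and IGF1 replicates 2 and 3 (0.63 and 0.66) lay below them. Reads of Cdkn1a per read of Cdkn1b were 2.02 ± 0.14 with vehicle, 4.39 ± 0.14 with phenylephrine and 4.22 ± 0.44 with IGF1. All treated samples lay above all vehicle samples. The treated groups overlapped through IGF1 replicate 1 (4.73) only, since IGF1 replicates 2 and 3 (3.97 and 3.98) lay below all phenylephrine samples (4.24 at the lowest). Reads of Cdkn1c per read of Cdkn1b were 0.55 ± 0.023, 0.57 ± 0.010 and 1.18 ± 0.063 in the same order, with vehicle and phenylephrine overlapping and all IGF1 samples above them. Reads of Cdkn2c per read of Cdkn2b were 1.64 ± 0.17 with vehicle, 0.65 ± 0.056 with phenylephrine and 3.87 ± 0.72 with IGF1, without overlap. Ccnd1 per read of Ccnd3 was 0.38 ± 0.017, 0.47 ± 0.0074 and 0.35 ± 0.036, and here too IGF1 overlapped vehicle through IGF1 replicate 1 only. The ratios are given as a description and were not tested.

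**Figure D3:**
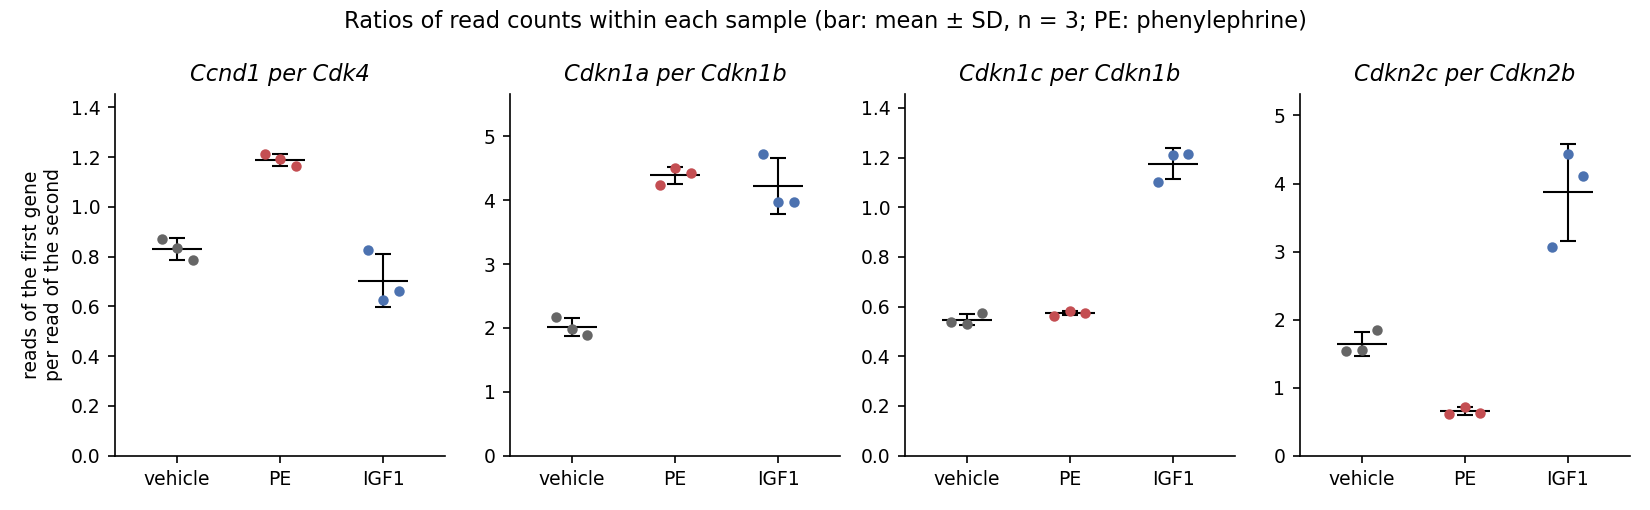
Reads of the first gene per read of the second within each sample, from 0 on the vertical axis, by group on the horizontal axis. Points are samples and bars the mean ± SD (n = 3). Cdkn1a per Cdkn1b is at least 3.97 in the treated samples and at most 2.17 in the vehicle samples.

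Cdkn2c, Cdkn1c and Cdkn2b had the widest range of group means, and the genes with the most similar patterns were found for each among 9282 others. Likeness was the root mean square difference, over the 9 samples, of log2 CPM centred on the vehicle mean. The genes nearest to Cdkn2c were Kif11 (0.046), a motor of the mitotic spindle, Cdca2 (0.056), a regulator of mitotic chromosomes, and Bub1b (0.062), a spindle checkpoint kinase. Their log2 fold changes were -0.56, -0.60 and -0.53 with phenylephrine and 1.16, 1.21 and 1.21 with IGF1. Among the 3 nearest to Cdkn1c were Itm2a (0.072) and the acyl-CoA synthetase gene Acsl1 (0.081). Among the 3 nearest to Cdkn2b were Stk40 (0.075) and Cyb5d2 (0.085).

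The counts in the following lists stand beside 56.8% of all genes called with phenylephrine and 48.1% with IGF1. Where scaling by library size only is named for phenylephrine, they stand beside 1751 genes higher and 5696 lower of 11873. Of 13 tested cyclins, kinases and inhibitors outside the 10, 7 rose and 1 fell with IGF1 (median log2 0.23), and 1 rose and 5 fell with phenylephrine (median -0.082). Rbl2, the gene of the pocket protein p130 that relates to the retinoblastoma protein, fell with each treatment, from 82.9 ± 1.61 CPM to 48.6 ± 1.99 with phenylephrine and 51.8 ± 5.31 with IGF1 (adjusted p = 1.2e-07 and 5.6e-07). Cdkn3, a phosphatase gene of the cell cycle, rose from 11.2 ± 0.76 to 35.8 ± 1.59 CPM with IGF1 (3.20-fold, adjusted p = 3.9e-10) and cyclin A1, Ccna1, from 0.31 ± 0.17 to 1.38 ± 0.17 CPM (adjusted p = 3.9e-04). Cyclin A2, Ccna2, fell from 30.5 ± 2.53 to 20.4 ± 0.93 CPM with phenylephrine (adjusted p = 1.1e-05) and rose 2.10-fold, to 64.0 ± 5.26 CPM, with IGF1 (adjusted p = 1.6e-08). Mnat1, a subunit of the kinase that activates CDKs, rose 1.23-fold with phenylephrine (adjusted p = 0.0025), a call that ended with scaling by library size only (log2 0.10, adjusted p = 0.16).

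E2F target genes of S phase rose in 15 of 18 cases with IGF1 and none fell (median log2 0.48), and 17 rose without IGF1 replicate 1. Tk1, a thymidine kinase, rose from 39.4 ± 2.97 to 88.8 ± 4.23 CPM (2.25-fold, adjusted p = 7.5e-10) and Rrm2, a subunit of ribonucleotide reductase, from 60.7 ± 6.52 to 131 ± 14.1 CPM (adjusted p = 1.0e-06). With phenylephrine 1 rose (Mcm5, a helicase subunit, 1.19-fold, adjusted p = 5.5e-04) and 6 fell, among them Rrm2 (1.43-fold lower) and Tk1 (1.35-fold lower), with a median of -0.034. With IGF1, Mcm5 rose as well, to 52.6 ± 0.50 CPM (adjusted p = 1.9e-07). With phenylephrine and scaling by library size only, none rose and 11 fell. Against IGF1 directly, 17 of the 18 were lower with phenylephrine and none higher (median -0.43). Over all genes, 27.1% were lower and 27.1% higher in that comparison.

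Of 7 tested E2F and DP factors, 2 rose and 1 fell with IGF1, and 1 rose and 2 fell with phenylephrine, 3 of 7 in each case and thus no larger a share than over all genes. E2f1, which activates S phase genes, rose from 34.7 ± 2.86 to 54.5 ± 7.53 CPM with IGF1 (1.58-fold, adjusted p = 7.2e-05) and its partner Tfdp1 1.23-fold (adjusted p = 4.7e-05). Tfdp2 was 1.42-fold lower with phenylephrine (adjusted p = 1.8e-04). Without IGF1 replicate 1, 4 rose and 1 fell with IGF1. With phenylephrine, 1 fell and none rose without phenylephrine replicate 1, while 5 fell and none rose with scaling by library size only. Of 4 tested genes of the MuvB core and MYB, 2 rose with phenylephrine (Lin37 and Lin54) and 2 with IGF1 (Lin54 and Mybl2), and none fell. Mybl2, a transcription factor of late S phase and G2, rose 1.44-fold with IGF1 (adjusted p = 3.7e-05). The rise of Lin54 with phenylephrine was lost without vehicle replicate 1 or 2 (adjusted p = 0.10 and 0.067). Scaled by library size only, both rises with phenylephrine were lost (Lin37 log2 0.15, adjusted p = 0.14; Lin54 log2 0.021, adjusted p = 0.80), and 2 of the 4 fell.

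A list of 11 genes tied to the ubiquitin ligases of D cyclins and p27 also held Gsk3b, a kinase gene, and Cryab, which are not ligase genes. Of the 11, 4 rose and 2 fell with phenylephrine, and 5 rose and 4 fell with IGF1. Gsk3b and Cryab were among those that rose with phenylephrine. Skp2, which recognises p27, rose from 8.67 ± 0.82 to 13.1 ± 1.36 CPM with IGF1 (adjusted p = 3.7e-04), and its cofactor Cks1b from 34.4 ± 1.16 to 50.0 ± 1.13 CPM (adjusted p = 9.4e-07). With phenylephrine Skp2 was at 7.44 ± 0.84 CPM (adjusted p = 0.12). Fbxo31, a receptor for cyclin D1, was 1.65-fold lower with phenylephrine and 1.40-fold lower with IGF1 (adjusted p = 9.6e-08 and 5.2e-06). Cryab, a small chaperone abundant in the heart, rose 1.96-fold with phenylephrine (adjusted p = 4.4e-04).

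Of 16 upstream regulators, 2 rose and 8 fell with phenylephrine (median -0.12), and 1 rose and 7 fell with IGF1 (median -0.18). The shares called in either direction were near those over all genes, but the split by direction was not. Falls took a larger share of the list than the background of 28.9% for phenylephrine and 23.4% for IGF1. Rises took a smaller share than the background of 27.9% and 24.7%. The split was not tested. Myc, a growth-related factor that binds E-boxes, rose from 21.2 ± 1.32 to 44.2 ± 1.99 CPM with phenylephrine (2.08-fold, adjusted p = 1.1e-05) and was 2.20-fold lower with IGF1, at 9.76 ± 2.29 CPM (adjusted p = 1.5e-05). The forkhead gene Foxo4 fell with each treatment, from 129 ± 3.77 CPM to 79.3 ± 4.03 and 74.1 ± 5.08 CPM (adjusted p = 5.9e-08 and 2.0e-08). Foxo1 fell from 22.4 ± 0.86 to 10.9 ± 1.02 CPM with phenylephrine and to 12.9 ± 1.89 CPM with IGF1 (adjusted p = 7.1e-07 and 1.2e-05). Jun, an AP-1 subunit, rose 1.47-fold with phenylephrine (adjusted p = 0.027), and the groups did not overlap. That call was lost on leaving out any single library of either group (adjusted p = 0.058 to 0.081). Without IGF1 replicate 1, which is in neither group but enters the shared estimate of spread, it passed (log2 0.56, adjusted p = 3.4e-18). With IGF1, Jun did not pass (adjusted p = 0.18), but it was lower without IGF1 replicate 1 (log2 -0.55, adjusted p = 1.5e-15).

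Target genes of p53, the class to which Cdkn1a belongs, rose in 10 of 16 cases and fell in 4 with phenylephrine (median 0.36), and rose in 7 and fell in 3 with IGF1 (median 0.21). Plk2, which is also an early response gene, rose from 120 ± 6.30 to 400.2 ± 3.995 CPM with phenylephrine (adjusted p = 0.013) and Btg2, an antiproliferative gene, 2.08-fold (adjusted p = 0.0032). Ccng1, cyclin G1, rose 1.93-fold with IGF1 (909 ± 4.77 to 1755 ± 139 CPM, adjusted p = 3.0e-09). Sesn1, a stress-response gene also controlled by FoxO factors, was 2.23-fold lower with phenylephrine and 1.63-fold lower with IGF1 (adjusted p = 3.4e-08 and 4.0e-06). Without IGF1 replicate 1, 7 rose and 6 fell with IGF1, and the median was 0.047.

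**Figure D4:**
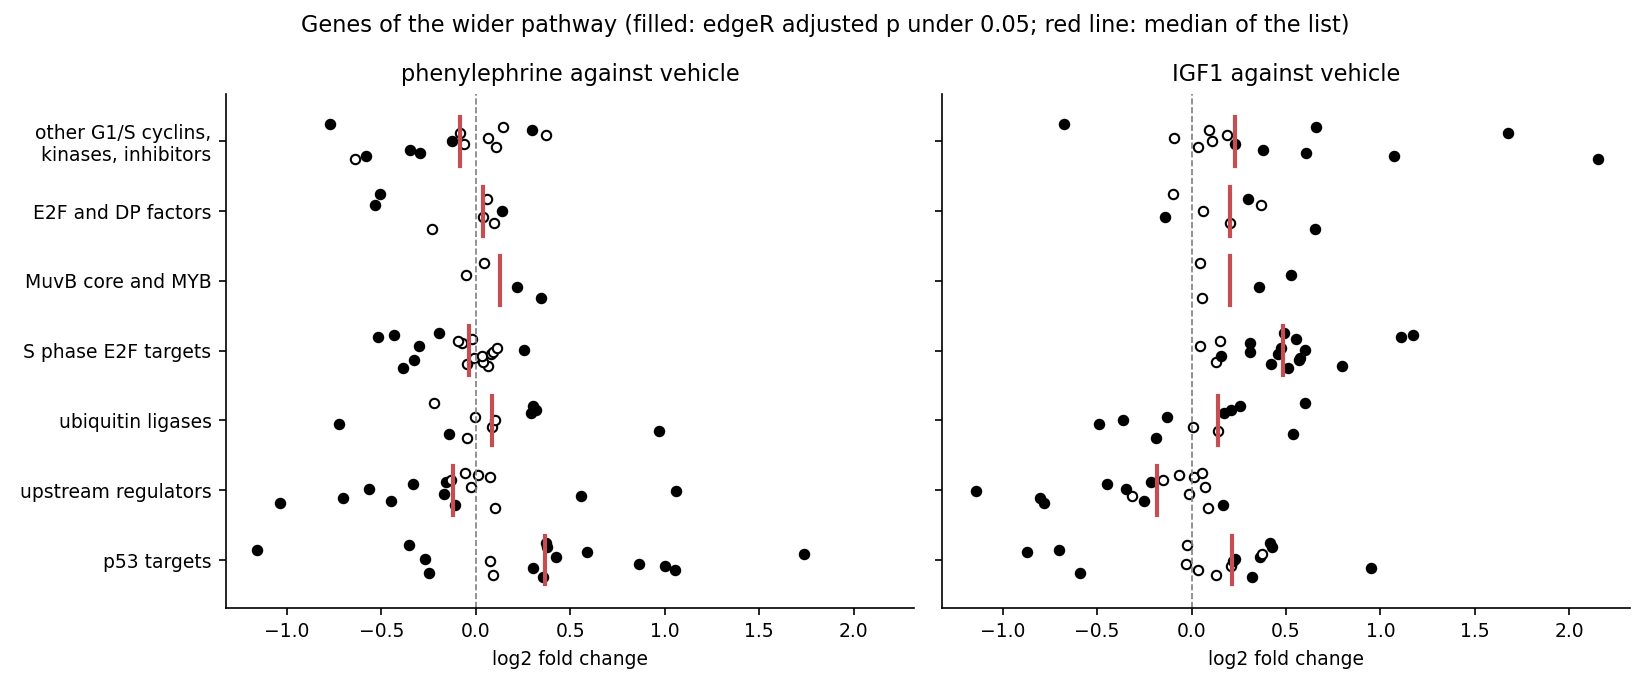
Log2 fold change (horizontal axis) of each tested gene of 7 lists of the wider pathway, for phenylephrine and IGF1 against the same vehicle samples. Points are genes, filled where the edgeR adjusted p was under 0.05, and the red line is the median of the list. The median of the S phase targets is 0.48 with IGF1 and -0.034 with phenylephrine.

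Markers of other cell types that such cultures can hold were measured beside these results. In bulk RNA, fewer cells of a type and less RNA per cell cannot be told apart. The summed level of 7 cardiomyocyte markers was 18772 to 20231 CPM with vehicle, 21621 to 22122 with phenylephrine and 22937 to 25353 with IGF1, of which 4 rose and 3 fell with phenylephrine and 4 rose and 1 fell with IGF1. Of 8 fibroblast markers the sums were 3724 to 4489, 3636 to 3706 and 4003 to 4560 CPM, mostly from Col1a1, while Col1a2 lay at 0.034 to 0.24 CPM. Of the 7 tested, 1 rose and 3 fell with phenylephrine. With IGF1, Lum (1.81-fold), Postn (1.66-fold) and Thy1 (1.30-fold) rose and Pdgfra fell (1.31-fold lower). Smooth muscle and pericyte markers (7 genes) summed to 1738 to 1828, 2469 to 2518 and 1525 to 2057 CPM, and 3 rose and 2 fell with phenylephrine. With IGF1 2 fell, and IGF1 replicate 1 (2057) lay above the vehicle samples while IGF1 replicates 2 and 3 (1525 and 1577) lay below them. Endothelial markers (7 genes) summed to 63.8 to 73.5, 44.2 to 56.3 and 23.7 to 30.6 CPM, and 1 fell with phenylephrine and 4 with IGF1. Without IGF1 replicate 1, 3 fell with phenylephrine. The largest part of each sum was Kdr, at 44.7 CPM with vehicle, 28.5 with phenylephrine and 13.1 with IGF1. Tie1, Vwf and Emcn passed with neither treatment. Of these markers, Pecam1, Cdh5, Vwf and Emcn stayed under 3 CPM in every sample. Macrophage markers (7 genes) summed to 34.4 to 39.4, 32.2 to 42.7 and 34.0 to 39.8 CPM, and 2 of 6 tested fell with phenylephrine. The part of these differences in the levels of the 10 genes was not tested.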

How the data were processed

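Read counts per gene in 9 RNA-seq libraries (3 vehicle, 3 phenylephrine, 3 IGF1) were used as deposited, whole numbers without normalization. Per the submitters' processing notes, STAR, HTSeq, DESeq and the build rn5 were used. Versions, roles and strand setting are not given in the sources used here. Groups and replicate numbers came from the sample titles. Genes were filtered with filterByExpr (minimum count 10, minimum total count 15), leaving 11873 genes with 99.99% of counts. Counts were scaled by TMM and fitted with the robust quasi-likelihood model of edgeR 4.0.16 (R 4.3.3) over all 9 samples, with group as the factor. Adjusted p-values are Benjamini-Hochberg values over all genes tested, from edgeR unless another tool is named, with a threshold of 0.05. SEs were obtained from the log2 fold change and its F statistic, and 95% intervals from the SE. The procedure was tested on simulated data.

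The 10 genes and the lists were chosen with earlier results of these data known. Named genes were the 10, up to 2 largest rises and 2 largest falls past the threshold per list and comparison (a selection of these is printed), and the 3 genes most like each of the 3 members with the widest range, among genes of at least 5 CPM. For Cdkn1c and Cdkn2b, 1 of the 3 is not reported here. Genes of a list outside this rule are printed only as comparison values or to describe a list. Alternatives were DESeq2 1.42.0, limma-voom (limma 3.58.1), other scaling and filters, no robust option, the compared groups alone, a replicate block and leaving out each sample. Of the listed symbols, Cdk7, Cdkn2d, E2f2, E2f5, E2f8, Lin9, Lin52 and Eda2r had no row and were not analysed here. Reads of near-identical gene copies may be split by such counting. The promoter windows are from RefSeq (GRCr8), a build other than that of the counts.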

Additional observations from a re-analysis of the deposited data

How the results depend on the processing

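The number of the 10 genes called stayed within 1.5 times its value under every alternative run. Leaving out 1 sample gave 8 to 9 calls for phenylephrine against vehicle, 6 to 8 for IGF1 against vehicle and 7 to 8 between the treatments. Of 540 fold changes of the 10 genes under an alternative, 518 kept direction and side of the threshold, 4 lost the call, 14 gained it and 4 changed sign. The sign changes were of values that did not pass with all samples and TMM scaling: Ccnd3 with IGF1 (log2 -0.072 with scaling by library size only and -0.023 without IGF1 replicate 1), and the phenylephrine to IGF1 difference without IGF1 replicate 1 for Ccnd3 (0.014) and Cdkn1a (0.022). Over the single samples left out, these 3 values ran from -0.023 to 0.036, from -0.059 to 0.014 and from -0.095 to 0.022. Among genes named from the lists, E2f6 (log2 0.14 with phenylephrine) became -0.055 with scaling by library size only. Over all genes, that scaling gave 1751 higher and 5696 lower in place of 3310 and 3429 with phenylephrine, 2031 and 3614 in place of 2935 and 2781 with IGF1, and 2132 and 4366 in place of 3215 and 3222 between the treatments. Deviations of same-numbered samples correlated at -0.16 to 0.056 over genes and those of other pairs across groups at -0.089 to 0.14, so the numbers were not taken as pairs. With the replicate block, 9, 6 and 7 of the 10 genes were called, as without it, and 6648, 5594 and 6312 of all genes in place of 6739, 5716 and 6437. The cause of these shifts was not tested. Cdkn2b had 208 to 355 reads per sample and SEs of 0.12 (log2), and Cdkn2c 191 to 1105 reads and SEs of 0.079 to 0.087.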
